A study of Mus musculus with 14 samples.

Results

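E and I are clones of 4T1, a line of mouse mammary tumour cells that spreads from the gland to other organs. They were set against 4 other clones of the same line, T, K, L and P, in which DNA methylation had been measured by genome-wide bisulfite sequencing. The pair was chosen by a measured value: E and I had the highest mean methylation over hypomethylated regions (HMRs), stretches of the genome that carry little methylation. It therefore cuts across the label of the clones: E carries the label intravasating, meaning able to enter blood vessels, as does T, whereas I carries the label non-intravasating, as do K, L and P. Each clone was 1 line grown from a single sorted cell, with no treatment named in the labels. E and I account for 4 of the 14 libraries of the series and the other 4 clones for 8. Each clone was sequenced in 2 rounds, and the deposited tables give 1 level per clone with no value per round. The parental line was not analysed here. All clones, E and I included, share the 4T1 background, and no clone is an untreated control for another.

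Methylation of cytosine in CpG dinucleotides is copied at cell division by a maintenance methyltransferase, so clones can carry different patterns forward. In most mammalian cells CpG-rich promoters are unmethylated and the rest of the genome is methylated. Tumour cells often lose methylation over long, gene-poor domains and gain it at some CpG-rich promoters. In such domains often lie the clusters of olfactory and vomeronasal receptor genes, whose products detect odours and pheromones in sensory neurons and which are silent in mammary epithelium.

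The sequences that introduce the promoter results are those with the widest gaps between the pair and the other clones, and they show how few CpGs most of these promoters hold. They are RefSeq promoter windows on GRCm38.p6, from 250 bases before to 50 after the gene start, 5′ to 3′ on the gene's strand, with each CG in capitals. The sources used here do not give the intervals over which the deposited levels were taken, so a window and its level need not cover the same bases. Olfr813 lies at chr10:129856270-129856569, plus strand. Olfr799 lies at chr10:129646880-129647179, plus strand. Olfr798 lies at chr10:129626010-129626309, minus strand. Dact2 lies at chr17:14203782-14204081, minus strand. 4930503E14Rik, the only one of the 5 that was lower in E and I, lies at chr14:44171322-44171621, minus strand.
Olfr813: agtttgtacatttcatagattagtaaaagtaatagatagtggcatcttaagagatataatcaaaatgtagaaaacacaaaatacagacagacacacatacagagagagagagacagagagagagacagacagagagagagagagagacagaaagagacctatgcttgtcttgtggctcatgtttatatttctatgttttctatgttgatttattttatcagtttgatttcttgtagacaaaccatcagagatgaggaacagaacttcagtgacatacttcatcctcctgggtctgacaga
Olfr799: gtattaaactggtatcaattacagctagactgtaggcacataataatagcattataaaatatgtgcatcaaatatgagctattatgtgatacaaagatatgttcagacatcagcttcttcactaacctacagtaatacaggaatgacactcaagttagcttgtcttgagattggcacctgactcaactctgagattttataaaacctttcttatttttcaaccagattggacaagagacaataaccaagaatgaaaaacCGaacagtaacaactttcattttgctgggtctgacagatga
Olfr798: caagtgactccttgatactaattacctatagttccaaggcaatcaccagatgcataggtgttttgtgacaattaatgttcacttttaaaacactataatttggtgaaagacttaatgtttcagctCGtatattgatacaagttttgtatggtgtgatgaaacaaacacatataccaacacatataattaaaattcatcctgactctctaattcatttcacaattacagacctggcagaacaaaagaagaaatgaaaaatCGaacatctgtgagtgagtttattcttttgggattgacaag
Dact2: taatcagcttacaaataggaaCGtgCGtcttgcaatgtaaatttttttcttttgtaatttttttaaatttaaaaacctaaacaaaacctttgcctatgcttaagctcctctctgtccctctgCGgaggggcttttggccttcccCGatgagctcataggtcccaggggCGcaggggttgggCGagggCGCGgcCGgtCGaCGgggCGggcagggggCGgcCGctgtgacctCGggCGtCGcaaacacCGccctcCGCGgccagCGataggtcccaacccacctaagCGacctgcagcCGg
4930503E14Rik: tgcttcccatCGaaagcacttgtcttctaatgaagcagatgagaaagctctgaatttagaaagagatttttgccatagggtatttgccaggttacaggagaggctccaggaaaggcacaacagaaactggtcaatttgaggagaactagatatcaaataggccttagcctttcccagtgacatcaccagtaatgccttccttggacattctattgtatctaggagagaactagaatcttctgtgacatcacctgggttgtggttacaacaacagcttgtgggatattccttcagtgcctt
The windows of the 3 olfactory receptors held 0 (Olfr813), 1 (Olfr799) and 2 (Olfr798) CpGs, and that of Dact2 held 23. The lower promoter, 4930503E14Rik, held 1. The other lower promoter was that of the microRNA gene Mir706, whose mature product lies at chr6:120034290-120034311, minus strand, on the same build. It is shown with its seed, bases 2 to 8, in capitals.
miR-706: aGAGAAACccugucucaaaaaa

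Read depth is unknown for both tables, so no level has an interval from counting error. A region listed at 0 may lack methylation or lack a usable estimate. The labels do not say that the 2 rounds were separate cultures, and the spread given here is that between clones. The autosomal tables held 20936 promoters and 97247 HMRs. The 10 promoter rows of epithelial marker genes had clone means of 0.191 to 0.239. The means were 0.544 to 0.637 for leukocyte, 0.580 to 0.668 for fibroblast and 0.631 to 0.707 for endothelial markers. Single markers overlapped between these lists. Epithelial Krt19 stood at 0.368 (L) to 0.565 (T). Leukocyte Cd14 stood at 0.180 (P) to 0.303 (L), endothelial Erg at 0.174 (I) to 0.326 (T) and 1 row of fibroblast Pdgfra at 0.0248 (K) to 0.0878 (P). None of these marker promoters separated E and I from the other clones by 0.1 or more.

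Mean autosomal HMR methylation, the value by which the pair was chosen, was 0.195 in E and 0.174 in I. It was 0.161 in P, 0.157 in K, 0.122 in T and 0.111 in L. I thus lay closer to P and K than to E, while T and L formed the low end. The mean was 0.184 over E and I and 0.138 over the other 4, a difference of 0.0466. The pair's mean was above that of the other clones at 63.3% of HMRs and below it at 18.8%. The share of HMRs listed at 0 was 24.8% in E and 30.7% in I, and between 29.8% (L) and 34.8% (K) in the others, so that in this respect E stood apart and I did not.

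By the mean over promoters the pair was not the top pair. By the median it was, with 0.344 in I and 0.333 in E against 0.331 in P, the next clone. Mean promoter methylation was 0.407 in I, 0.401 in P, 0.400 in E, 0.398 in K, 0.374 in T and 0.366 in L. E therefore lay below P. The pair's mean was 0.404, against 0.385 for the other 4 clones.

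At 2902 promoters, 13.9% of the table, E and I both lay above T, K, L and P by any margin, and at 479 (2.29%) both lay below. A region is called separated here when the gap between the nearest clones of the 2 sets was at least 0.1 for promoters or 0.2 for HMRs. By that definition 54 promoters (0.258%) were separated upwards and 2 (0.00955%) downwards. Since the same libraries chose the pair, these counts are a description without a test. P was the nearest clone at 22 of the 54, T at 13, K at 12 and L at 6, with 1 tie. The count was 118 without P and 108 without K, 295 without E and 233 without I. With quantile-normalised levels, 28 promoters were separated upwards and 7 downwards.

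The promoter with the widest gap was that of Olfr813, an olfactory receptor gene on chromosome 10. Its methylation level was 0.598 in E and 0.390 in I, against 0.0755 in T, 0.0513 in K, 0.0385 in L and 0.0877 in P. The 4 other clones were thus nearly unmethylated there, and E was higher than I. Olfr799 stood at 0.576 in E and 0.438 in I, with T, K, L and P at 0.121, 0.149, 0.183 and 0.155. Olfr798 stood at 0.649 in E and 0.471 in I, and at 0.179, 0.0840, 0.0625 and 0.230 in T, K, L and P. Olfr799 and Olfr798, also on chromosome 10, gave the order seen at Olfr813, with E first and I second. Olfr790 had 0.376 in E and 0.363 in I, and between 0.0208 (L) and 0.123 (K) in the others. At Olfr818 E and I both stood at 0.323 to 0.324 and the others between 0.0579 (L) and 0.108 (K).

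Outside the olfactory receptors, the promoter of Dact2, which encodes a Dishevelled-binding regulator of Wnt and TGF-beta signalling, had 0.480 in E and 0.497 in I. T stood at 0.212, K at 0.230, L at 0.165 and P at 0.182, so neither the low pair T and L nor K and P came near. Pogk, a gene derived from a transposase and carrying a KRAB domain, had 0.586 in E and 0.673 in I, against 0.198 in T, 0.243 in K, 0.405 in L and 0.288 in P. At both of these CpG-rich promoters I was above E. Akr1c21, a hydroxysteroid dehydrogenase of the aldo-keto reductase family, had 0.389 in E and 0.333 in I, with K listed at 0 and L, the nearest, at 0.143. Its window held 1 CpG, and its level in every clone was 0 or a fraction with a denominator of at most 20. Izumo3, a member of the family of sperm fusion protein Izumo1, had 0.713 in E and 0.560 in I, and 0.143 (K) to 0.378 (P) in the others. Mcpt9, a mast cell protease, had 0.410 in E and 0.457 in I, and 0.175 (L) to 0.231 (T) in the others. Vmn1r167, a pheromone receptor, had 0.436 and 0.394, and the others 0.138 (K) to 0.204 (T). At 4930583P06Rik the 4 others were themselves spread out: E and I stood at 0.729 and 0.662, T, K and P at 0.386 to 0.438, and L at 0.0794.

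**Figure D1:**
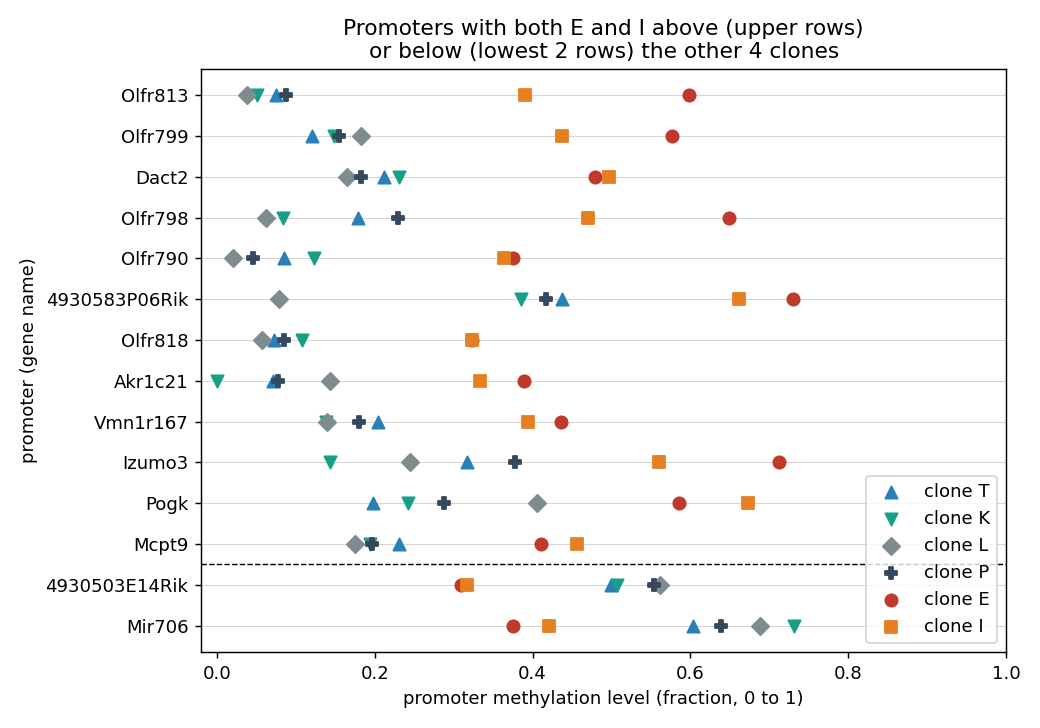
Promoter methylation (x axis, fraction from 0 to 1) of the 12 promoters with the widest gap above and the 2 below, 1 marker per clone. In the upper rows E and I lie to the right of all 4 other clones, as at Olfr813 with 0.598 and 0.390 against at most 0.0877, and in the lowest 2 rows they lie to the left.

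Over the 54 promoters the median level was 0.504 in both E and I, and 0.311 in T, 0.309 in K, 0.248 in L and 0.311 in P. The pair's mean at a member ran from 0.137 at Crisp4, where T, K, L and P were listed at 0, to 0.861 at Acot10. E was above I at 31 of the 54 and below at 23. At the threshold, Olfr775 and Gm5797 had gaps of 0.1 and were counted, while Gsdmc, with a gap of 0.0992, and Olfr1205, with 0.0986, were not. Many members are receptor genes with close copies in the genome, and levels of such paralogs are uncertain where short reads cannot be placed.

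A part of the separated promoters lay close together in 1 cluster of chromosome 10. Of the 54, 19 lay on chromosome 10, which is 1.83% of its 1036 promoters, while chromosomes 8, 9, 18 and 19 had none. Among olfactory receptors 19 of 1075 promoters were separated upwards (1.77%, against 0.258% for all promoters), and 16 of the 19 belonged to the row of 54 receptor promoters from Olfr763 to Olfr827. That row spans chr10:129011287-130210160 in GRCm38.p6 and was singled out after its values were seen. Within it 16 of 54 were separated (29.6%) and 35 of 54 (64.8%) were above by any margin, while none was below. The other 1021 olfactory receptor promoters had 3 separated (0.294%), Olfr178, Olfr1104 and Olfr1255, and 160 above by any margin (15.7%), shares near those of all promoters. The pseudogene Olfr1038-ps on chromosome 2 was not in the list and is not in these counts: it was separated too, with 0.478 in E, 0.417 in I and at most 0.282 (P) in the others.

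Over the 54 receptor promoters of chromosome 10 the mean level was 0.534 in E, 0.438 in I, 0.353 in P, 0.345 in K, 0.323 in T and 0.246 in L. E was above I at 48 of them, and L was the lowest clone at 38. Over the other 1021 receptors the order was not the same: I had 0.397, K 0.392, E 0.389 and P 0.386, with T at 0.338 and L at 0.309. The 20 promoters before the row, from Ikzf4 to Olfr9, held no separated promoter, with means of 0.396 in E and 0.400 in I against 0.370 to 0.412 in the others. The 5 promoters after it, from Neurod4 to Vmn2r87, held none either, with means of 0.649 in E, 0.579 in I and 0.418 to 0.574 in the others.

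**Figure D2:**
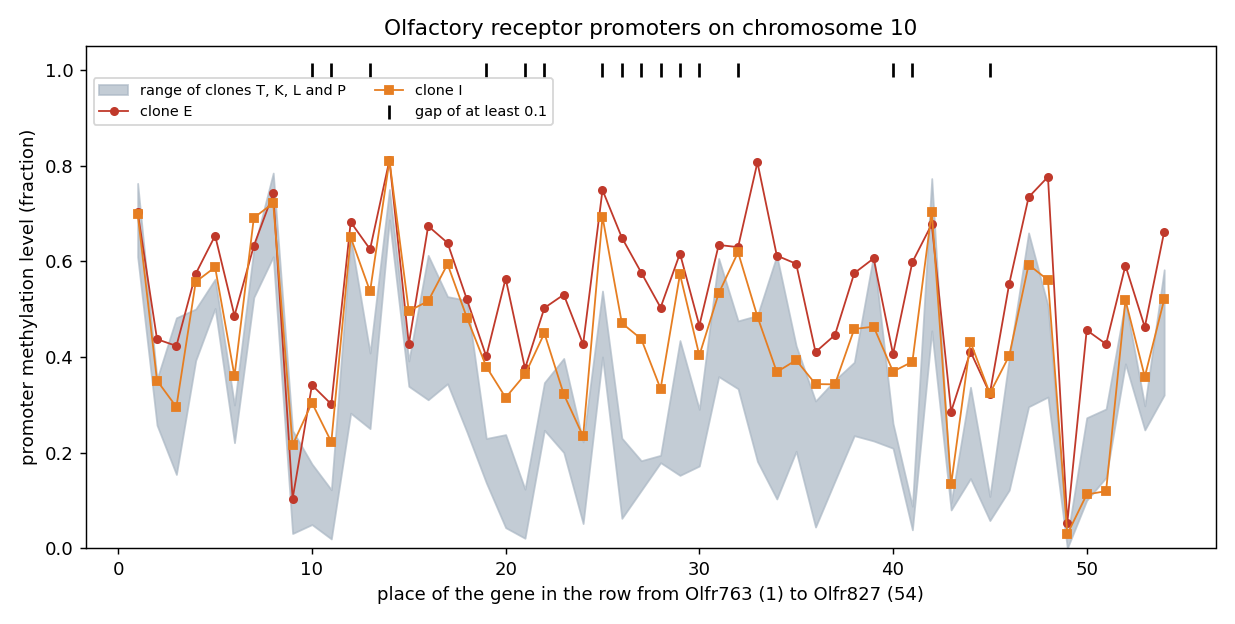
Promoter methylation (y axis, fraction) of the 54 olfactory receptor genes of the chromosome 10 row in their order along the chromosome (x axis), for E, I and the range of T, K, L and P (shaded). Ticks at the top mark the 16 promoters where both E and I were at least 0.1 above the shaded range, and E lies above I at 48 of 54.

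Other receptor and enzyme families contributed a few promoters each, to be read beside the 0.258% of all promoters separated upwards. Of 270 vomeronasal receptor promoters 4 were separated upwards (1.48%): besides Vmn1r167 these were Vmn2r18, Vmn1r213 and Vmn2r105. Vmn2r18 had 0.431 in E and 0.467 in I and at most 0.320 (P) in the others, and Vmn2r105 had 0.311 and 0.302 and at most 0.196 (P). Of 101 cytochrome P450 promoters 2 were separated (1.98%). Cyp2d26 had 0.641 in E and 0.586 in I against 0.324 (K) to 0.431 (P), and Cyp2a22 had 0.505 and 0.627 against 0.323 (L) to 0.387 (P). Krtap13-1, a hair keratin-associated protein gene, was the only one of 42 of its family (2.38%), with 0.485 in E, 0.5 in I and 0.302 (K) to 0.373 (P) in the others. Of 501 microRNA promoters 1 was separated upwards, a share (0.1996%) near that of all promoters: Mir3059, with 0.783 in E and 0.788 in I against 0.513 (L) to 0.667 (P).

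No promoter was separated in either direction in the lists of genes of epithelial identity (37 promoters), epithelial-mesenchymal transition (37), coagulation and fibrinolysis (34), matrix proteases (35), DNA methylation enzymes (25) or imprinting (45), nor among developmental transcription factors (92) or HOX genes (39). Larger families without a separated promoter were solute carriers (373 promoters), Zfp zinc finger genes (351), potassium channels (101), ribosomal proteins (79), serpins (63) and clustered protocadherins (58). With 0.258% of all promoters separated upwards and 0.00955% downwards, a count of 0 in lists of these sizes does not set them apart from the table. By any margin, E and I were above at 20.6% of the coagulation, 20% of the protease, 18.9% of the epithelial, 15.6% of the imprinting, 8.70% of the transcription factor, 8% of the DNA methylation, 7.69% of the HOX and 2.70% of the epithelial-mesenchymal transition promoters, beside 13.9% of all promoters. In the first 8 of these lists the median difference between the pair and the other clones ran from 0.00232 (epithelial-mesenchymal transition) to 0.0347 (coagulation), beside 0.0125 over all promoters. Serpine2, a protease inhibitor, had the widest difference of means in the coagulation list, but L interrupted the order: I had 0.611, L 0.489, E 0.449, P 0.323, K 0.309 and T 0.229. Pdgfra, a growth factor receptor of mesenchymal cells, had 2 promoter rows. In 1 row E had 0.633, I 0.637 and the others 0.443 (K) to 0.570 (P), without overlap but with a gap under 0.1. In the other row the clones overlapped: E had 0.0596 and I 0.0687, below L at 0.0692 and P at 0.0878. At Sox8, a developmental transcription factor, E and I had 0.449 and 0.494 and L, the nearest, 0.373. At Igf2r, an imprinted gene, E had 0.649 and I 0.799, but T and L were at 0.668 and 0.657 and only K and P were low, at 0.373 and 0.306.

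The promoters separated upwards by at least 0.1 held few CpGs, whereas those above by any margin did not. Among 12221 genes with 1 promoter in the table and 1 RefSeq window of 300 bases, the motif searched was CG, which reads the same on both strands, and 94.5% of windows held it. The median window held 14 CpGs and 56.7% GC. The 45 separated upwards among them had a median of 1 CpG and 38.0% GC, and 71.1% held at least one. A part of the 45 were neighbours in the chromosome 10 receptor row, and none of these held more than 2 CpGs. Of windows with no CpG 1.95% were separated upwards, of those with 1 to 2 CpGs 1.24%, with 3 to 5 CpGs 0.324%, with 6 to 10 CpGs 0.0723%, with 11 to 20 CpGs none and with over 20 CpGs 0.116%. The class over 20 CpGs held 5: Pogk (32), Vopp1 (30), Dclk2 (27), Dact2 (23) and Acyp2 (21). Without a minimum gap the shares hardly differed, from 13.8% to 15.9% across these classes. The 1770 windows of promoters above by any margin had a median of 14 CpGs and 56.3% GC. Of the levels between 0 and 1 at the 54 promoters, 17.0% equalled a fraction with a denominator of at most 20 (within 2e-06), against 3.94% over all promoters. The part of such coarse levels in the result was not tested.

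At HMRs the same comparison gave 15368 regions with E and I above all 4 others by any margin (15.8%) and 792 below (0.814%). With a gap of at least 0.2, 417 were separated upwards (0.429%) and 12 downwards (0.0123%). A downward separation was possible only where all 4 other clones stood at 0.2 or more, so these counts do not compare the directions evenly. The median level of the 417 was 0.581 in E and 0.538 in I, against 0.231 in P, 0.225 in K, 0.174 in T and 0.153 in L. E was above I at 250 of them and below at 125. All 4 other clones were listed at 0 at 25. P was the nearest clone at 150, K at 122, T at 65 and L at 29, with ties at 51. The count was 959 without P, 655 without K, 1257 without E and 2666 without I. With quantile-normalised levels 114 were separated upwards and 28 downwards.

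The excess of E and I was found in HMRs of 2 to 50 kb. In HMRs under 1 kb the mean was 0.147 over E and I and 0.146 over the other 4, and L was the highest clone with 0.186. In HMRs of 1 to 2 kb the means were 0.0883 and 0.0811, with L at 0.0889 and E at 0.0885. From 2 to 5 kb the pair had 0.195 and the others 0.150, from 5 to 10 kb 0.214 and 0.151, from 10 to 20 kb 0.175 and 0.119, and from 20 to 50 kb 0.126 and 0.0836. In each of these 4 longer classes E was highest, I second, and K and P lay between I and the low clones T and L. Only 4 HMRs were of 50 kb or more, with means of 0.0867 over E and I and 0.0503 over the others. Among these K was highest with 0.0977, I had 0.0917 and E 0.0818. L thus changed from the highest clone in the 2 shortest classes to the lowest in the classes from 2 to 50 kb.

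**Figure D3:**
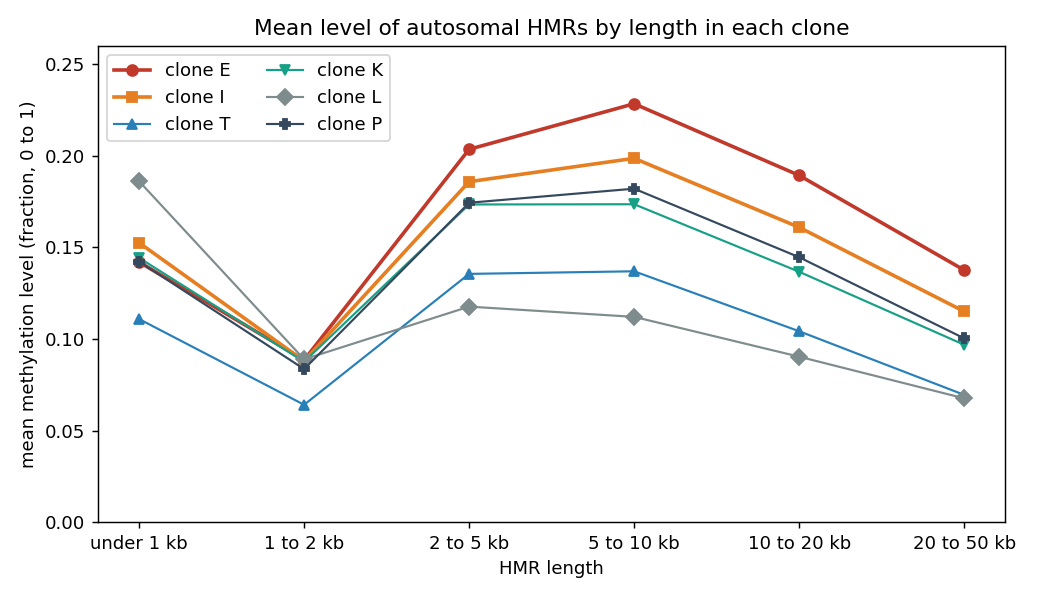
Mean methylation level (y axis, fraction) of autosomal HMRs by length class (x axis) in each clone, 1 line per clone. E and I are the top 2 lines from 2 to 50 kb (4 HMRs of 50 kb or more are not drawn), at 0.228 and 0.199 in HMRs of 5 to 10 kb, while under 1 kb L is highest at 0.186.

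The separated HMRs followed the same lengths. Under 1 kb, 6 of 3207 were separated upwards and 7 downwards, and from 1 to 2 kb 7 of 11022 upwards and 3 downwards. From 2 to 5 kb 95 of 34674 (0.274%) were separated upwards, from 5 to 10 kb 245 of 34655 (0.707%), from 10 to 20 kb 62 of 12233 (0.507%) and from 20 to 50 kb 2 of 1452 (0.138%). Without a minimum gap the share above was 4.90% under 1 kb, 4.95% from 1 to 2 kb, 13.6% from 2 to 5 kb, 20.003% from 5 to 10 kb, 21.9% from 10 to 20 kb and 22.7% from 20 to 50 kb. The median length was 6480 bp in the 417 higher HMRs, 832 bp in the 12 lower ones and 4974 bp in all autosomal HMRs. Of the levels between 0 and 1 at the 417, 62.2% equalled a fraction with a denominator of at most 20, against 54.5% over all HMRs.

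By chromosome, the share of HMRs separated upwards was 1.51% on chromosome 10 (49 HMRs), 1.33% on chromosome 9 (70), 1.25% on chromosome 16 (42), 0.880% on chromosome 1 (75), 0.824% on chromosome 15 (27) and 0.556% on chromosome 4 (37). It was 0.0317% on chromosome 8 and 0.0351% on chromosome 11, with 2 HMRs each. The difference between the pair and the other clones in the mean level was positive on all 19 autosomes, from 0.0255 on chromosome 11 to 0.0808 on chromosome 10. The choice of the pair for high HMR means favours this sign. Chromosome 9 stood high in separated HMRs but had no separated promoter.

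Within chromosomes a part of the separated HMRs lay in a few stretches. HMR positions are given as the deposited table has them, in a build that could not be established, and were not matched to genes. The table was divided after its values were seen into 504 windows of 5 Mb, and 388 of these held no HMR separated upwards. The 6 windows with the most held 157 of the 417 (37.6%) but 811 of all HMRs (0.834%). In the window from 80 to 85 Mb of chromosome 9, 34 of 119 HMRs were separated, with a mean level of 0.441 in E, 0.374 in I and 0.124 (L) to 0.190 (T) in the others. From 90 to 95 Mb of the same chromosome 28 of 125 were separated, with 0.509 in E, 0.448 in I and 0.147 (L) to 0.248 (T) in the others. On chromosome 1, 28 of 217 were separated from 140 to 145 Mb and 22 of 114 from 145 to 150 Mb. On chromosome 4, 26 of 148 were separated from 90 to 95 Mb, and on chromosome 16, 19 of 88 from 50 to 55 Mb. Among 498 windows with at least 20 HMRs, the pair's mean was above that of the other clones in 490 and below in 8. The pair was chosen for high HMR means, so this count follows in part from that choice.

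**Figure D4:**
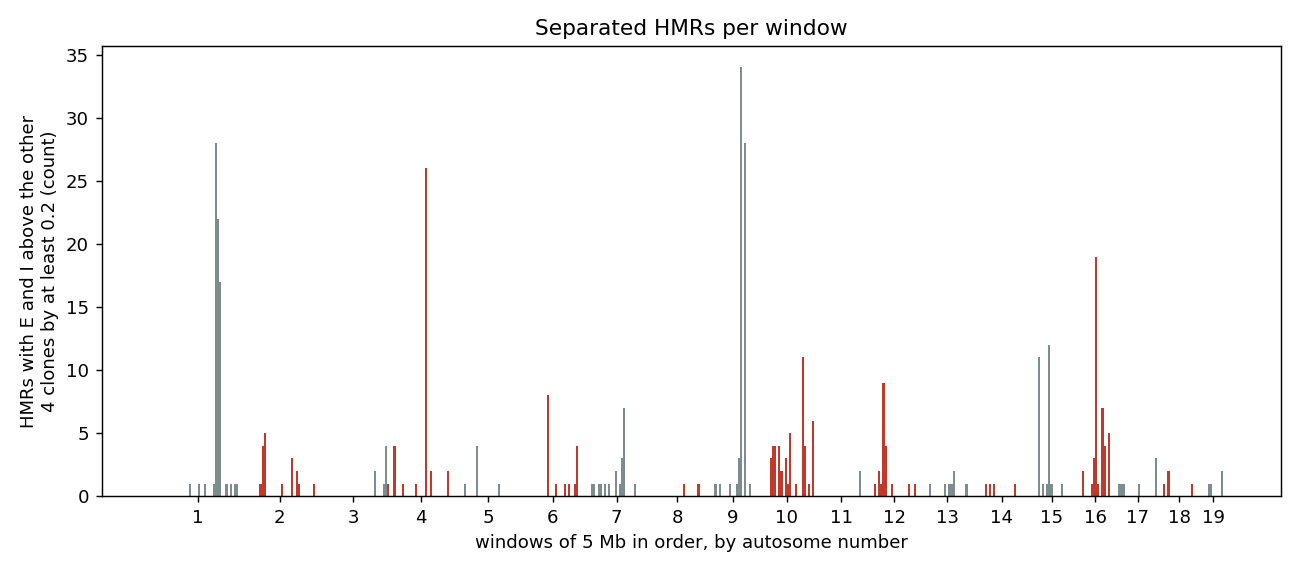
Number of HMRs per 5 Mb window (y axis) at which E and I both lay at least 0.2 above the other 4 clones, with the windows in order along autosomes 1 to 19 (x axis, alternating colours). The tallest bars are the windows of 34 and 28 on chromosome 9, 28 on chromosome 1 and 26 on chromosome 4, and 388 of 504 windows are empty.

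Most separated HMRs stood alone in the table, 293 of the 417. A further 29 runs had 2 consecutive HMRs, and 66 HMRs lay in 16 runs of at least 3. The longest run had 9 HMRs at chr4:92081819-92416461. Over its HMRs E ranged from 0.568 to 0.818, I from 0.478 to 0.809 and the other clones from 0 to 0.404. A further run of 6 followed at chr4:92441679-92944713, with means of 0.622 in E, 0.653 in I and 0.165 (L) to 0.240 (K) in the others. On chromosome 1 a run of 7 lay at chr1:149734481-149899271, with means of 0.672 in E, 0.640 in I and 0.218 (L) to 0.389 (K). On chromosome 10 a run of 5 lay at chr10:102326020-102595903, with 0.637 in E, 0.568 in I and 0.131 (L) to 0.247 (P). Runs of 4 lay at chr1:151231298-151300297, chr4:18096765-18191252 and chr9:80646311-80693021. In both runs described near 92 Mb of chromosome 4 the mean of I was above that of E, while in the other 5 runs named here E was above I. No 2 consecutive HMRs were separated downwards.

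The HMR with the widest gap, chr4:92013603-92021790, had 0.732 in E and 0.862 in I, against 0.207 in T, 0.208 in K, 0.211 in L and 0.174 in P. The HMR at chr4:92298906-92306414 had 0.568 in E and 0.478 in I, with T at 0.0208 and K, L and P listed at 0. At chr17:14339373-14341426 E had 0.442 and I 0.5, and all 4 others were listed at 0. At chr16:52999697-53007313 E and I had 0.690 and 0.667, and the others 0.101 (L) to 0.226 (P). The longest separated HMR, chr9:81478342-81503189 with 24847 bp, had 0.538 in E and 0.5 in I and 0.136 (L) to 0.167 (K) in the others. At the threshold, the HMR at chr10:101226630-101233941 had a gap of 0.2 and was counted, and that at chr16:80888371-80895815, with 0.199999, was not.

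Regions lower in E and I were few. They could arise only where all 4 other clones stood at 0.1 or more at promoters, or at 0.2 or more at HMRs. Where the mean of these clones was 0.3 to 0.5, 69 HMRs were separated upwards and 4 downwards. At 0.5 to 0.7 the counts were 0 upwards and 4 downwards, although by any margin 48 were above and 24 below. At 0.7 to 1 they were 0 upwards and 2 downwards. 4930503E14Rik, a gene named only by a clone identifier, had a promoter level of 0.310 in E and 0.317 in I, against 0.5 in T, 0.507 in K, 0.562 in L and 0.554 in P. Mir706 had 0.375 in E and 0.421 in I, against 0.603 in T, 0.731 in K, 0.688 in L and 0.639 in P. The pair lay clear of the others at both, with T the nearest clone each time. Just outside the threshold were 2310069B03Rik, with a gap of 0.0873, and Kirrel3, with 0.0887. Of the 12 lower HMRs 7 were under 1 kb, and at 4 both E and I were listed at 0. At chr16:34573160-34573327, 167 bp long, E was listed at 0 and I had 0.167, with T at 0.944, K at 0.769, L at 0.762 and P at 0.667. At chr14:65758810-65759514 E and I were listed at 0 and the others stood between 0.450 (P) and 0.596 (K). Among those of 1 kb or more, chr7:140003025-140004184 had 0.294 in E and 0.417 in I and 0.667 (P) to 0.778 (L) in the others.

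Taking each clone's median off all its levels left 51.9% of the upward separations at promoters and 53.5% of those at HMRs. The medians of E and I were above those of all 4 other clones, at 0.333 and 0.344 against at most 0.331 (P) for promoters, and at 0.174 and 0.155 against at most 0.142 (P) for HMRs. The step therefore narrows every gap above and widens every gap below. It left 28 promoters (0.134%) separated upwards, all among the 54, and 4 (0.0191%) downwards. The 2 added below were Lor, encoding the cornified envelope protein loricrin, and Cmya5, a muscle gene. Lor had 0.488 in E and 0.495 in I as deposited, with T, the nearest, at 0.556, and Cmya5 had 0.387 and 0.390, with T at 0.450. Among the olfactory receptors 13 remained separated, 11 of them in the chromosome 10 row. Of the HMRs 223 (0.229%) were separated upwards, all among the 417, and 28 (0.0288%) downwards, 12 of which had been so as deposited. The higher HMRs that remained had a median length of 6940 bp, and the 6 windows named above held 101 of them. Of the 28 lower ones 9 were under 1 kb and 10 of 1 to 2 kb, the classes in which the pair's mean exceeded that of the other clones by 0.00136 and 0.00723. With medians off, the median difference over all promoters went from 0.0125 to -0.0155. With each clone's mean taken off instead, 37 promoters and 227 HMRs were separated upwards, and 2 promoters and 27 HMRs downwards.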

How the data were processed

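Genomic DNA was bisulfite converted and sequenced as paired 76-base reads, per the labels' protocols. The deposited levels are fractions from 0 to 1 that the authors computed per promoter and per HMR, 1 per clone. Per the submitters' processing notes, bedtools, DESeq and mm10 were used, with no role stated. The sources used here do not name the aligner, HMR caller, promoter intervals or the way rounds were joined. The last HMR of chromosome 7 ended at 152.5 Mb, past the last GRCm38 gene at 145.3 Mb. HMR positions were therefore not read as GRCm38 positions, and their build was not established.

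Of 22110 promoter rows 145 repeats were dropped. Names were matched to RefSeq GRCm38.p6 for chromosomes: 20429 by symbol, 1425 by synonym, 111 not. Levels equal to those of another gene were kept. Coverage was not used here, so no minimum or interval was set. No test was run, since the pair was chosen on these libraries. Members and lists were chosen with earlier results of these data known. Named promoters were the 12 per direction with the widest gap that stayed separated with medians off, list members that were separated, and otherwise the member of a list with the widest difference of means. Named HMRs were the widest of at least 1 kb, the longest, and runs. Alternatives were other centrings, quantile normalisation, other gaps, filters on regions at 0, and each clone left out. The counting was tested on simulated data. Python 3.11.15, pandas 2.3.3, NumPy 2.4.6 and matplotlib 3.10.9 were used.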

Additional observations from a re-analysis of the deposited data

Results flagged for a closer look

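The named regions and the mean HMR and promoter levels made 73 items. In 6 of them 1 of the clones T, K, L and P was set off from the other 3 (gap over range above 0.829). Chance meets this rule about 1 time in 20 for levels without ties, a rate that does not hold for tied levels. At promoters this clone was L each time: 4930583P06Rik at 0.0794, the potassium channel subunit gene Kcne4 at 0.5 and the germline factor gene Sohlh1 at 0.438. Among HMRs it was P at 0.174 in the region of chromosome 4 from 92013603, where the others stood at 0.207 to 0.211. In that from 92298906 it was T at 0.0208, with K, L and P listed at 0. In the region of chromosome 10 from 126607931 it was T at 0.714, with K, L and P all at 0.6.

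Chromosome X was outside the comparison of autosomes. Of its 4301 HMRs 314 (7.30%) were higher in E and I by at least 0.2, and none was lower. The mean level there was 0.225 in E, 0.134 in I, 0.0963 in P, 0.0654 in T, 0.0604 in L and 0.0499 in K. Of its 916 promoters 12 (1.31%) were higher by at least 0.1, and none was lower.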

How the results depend on the processing

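The upward promoter count of 54 became 28 with medians off, 37 with means off and 28 after quantile normalisation. It became 2902 with any gap, 7 at 0.2, 1 at 0.3 and 80 to 295 with 1 clone left out. The downward count of 2 became 4, 2, 7, 479, 0, 0 and 5 to 28 under the same settings. The 417 upward HMRs became 223 with medians off, 227 with means off, 114 after quantile normalisation, 176 with medians of HMRs above 0 in all clones off, 15368 with any gap, 2607 at 0.1, 83 at 0.3, 731 with all chromosomes, and 519 to 2666 with 1 clone left out. The 12 downward HMRs became 28, 27, 28, 34, 792, 76 and 2 under the same settings up to the gap of 0.3, 4 among HMRs above 0 in all clones, 5 among those of at least 1 kb, and 16 to 67 with 1 clone left out. Fewer clones or a smaller gap make separation easier by construction; the cause of the other moves was not tested. The difference in mean HMR level stayed between 0.0364 and 0.0670, and that in mean promoter level between 0.0126 and 0.0281. Of 450 values of 50 named promoters, 424 moved by less than the spread among T, K, L and P, 24 by more, and 2 changed sign: the difference at Cldn4 without E (-0.00458, with 0.189 without I) and that at S100a2 without I (0.00694, with -0.145 without E). Of 189 values of 21 named HMRs, 148 moved by less and 41 by more. No paired analysis was possible because the tables hold 1 level per clone and no column per round.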

Other observations

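Over the 97247 autosomal HMRs, E and I had a Pearson correlation of 0.815, the highest of the 15 pairs of clones, but by mean absolute difference (0.0704) they were the fourth closest pair, behind L and T (0.0640), K and P (0.0658) and I and P (0.0685). Over the 20936 promoters E and I were second by both measures, with 0.984 and 0.0393, behind K and P with 0.984 and 0.0380. These values share 1 library set per clone and the level differences between clones, with read depth unknown, and are given as a description.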
